A study of Mus musculus with 2 samples.

Results

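Wnt10b, a secreted Wnt ligand, and 9 other genes of the canonical Wnt pathway were followed in LSKs from the BM of Scl/tTA-BA mice before and after BA was induced. They make up 10 of the 34745 genes in the deposited tables and were chosen by name. They are the ligands Wnt10b and Wnt10a, the co-receptors Lrp5 and Lrp6, the scaffolds Axin1 and Axin2, β-catenin (Ctnnb1) and the transcription factors Tcf7, Lef1 and Tcf7l2. Wnt10b was included because its FPKM at week-3 was known to be far below that at week-0. The difference between the libraries was therefore used in the choice and is given as a description, with no test.

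Scl/tTA-BA mice, kept on the B6 (C57BL/6) background, carry BCR/ABL (BA) under a tet-off switch, with the transactivator tTA driven by Scl sequences that act in hematopoietic stem and progenitor cells. Doxycycline in the drinking water holds BA off in the week-0 mice, and its withdrawal for 3 weeks gave the week-3 mice, so both groups carry the same transgenes. LSKs are lineage-negative bone marrow cells positive for Sca1 and c-Kit, and 1 library was sequenced at each time point from the LSKs of 3 mice mixed together. The ages of the mice were not given in the sources used here. Week-3 LSKs need not all express BA, since in the paper only part of the LSKs of separate Scl/tTA-GFP mice were GFP-positive at week-3. With 1 library per time point, the spread between mice is unknown, and time, withdrawal of doxycycline and BA cannot be told apart.

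Gene counts summed to 6356164 reads for the week-0 library and to 3886695 for that of week-3, and 3 reads made up 0.472 and 0.772 reads per 1000000 (RPM). Levels are FPKM, which divide reads by exon length and by the reads of the library, and ratios are week-3 over week-0. Intervals in brackets are exact 95% intervals from the reads (Poisson for a level, Clopper-Pearson for a ratio or a share). They cover counting error only and treat reads as independent. Because the cDNA was amplified, reads need not stem from different molecules, and the intervals can be too narrow. The sorting markers were present in both libraries, with an FPKM of 16.9 and then 11.5 for Kit and of 19.8 and then 14.8 for Ly6a, which encodes Sca1. Of the 13689 genes with at least 10 reads over both libraries, 17.9% were at most 0.5-fold at week-3 and 11.9% at least 2-fold, with a median log2 ratio of 0.05. For 305 of these genes a count of 0 was replaced by a floor of 3 reads, so that their ratio is a bound. The filter sums both libraries, so a gene with few reads can pass through either library alone, which favours ratios far from 0. The libraries also differed in markers. Of 10 mast cell or basophil markers, 9 were at least 2-fold higher at week-3, as were 8 of 10 granulocyte or monocyte markers, whereas 4 of 10 LSK markers and 13 of 15 immediate-early genes were at most 0.5-fold. Among the LSK markers, 1 was at least 2-fold higher, Slamf1, with 10 and 15 reads (log2 ratio 1.30). In such bulk samples, fewer cells of a type and less RNA per cell cannot be told apart.

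In the canonical pathway, a Wnt ligand binds a Frizzled receptor together with Lrp5 or Lrp6. Without ligand, a complex built on Axin and Apc lets Gsk3 and casein kinase 1 phosphorylate β-catenin for degradation. With ligand, the complex is held at the membrane, and β-catenin accumulates and joins TCF/LEF proteins in the nucleus to activate target genes, among them Axin2 and other genes that dampen the pathway. In bone marrow the pathway is known for roles in stem cell self-renewal, lymphoid development and bone formation, and β-catenin is required for the maintenance of CML stem cells in mice.

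Promoter windows, running from 250 bases before to 50 bases after an annotated start site (RefSeq, GRCm38.p6), were at hand for 6 of the 10 genes, namely Wnt10b, Ctnnb1, Tcf7, Lef1, Tcf7l2 and Axin2, with 12 windows between them. TCAAAG, the core of the element that TCF/LEF proteins bind, was searched on both strands. It was found in 1 of the 12 windows, at an internal start site of Lef1, where it lay 180 and 120 bases before the start. Across all 32851 windows, 16.0% held it. The longer form ATCAAAG, every match of which is also a match of the shorter one, occurred in 3.73% of all windows and in none of the 12. The GC content of the 12 windows ran from 42.0% to 76.3%, beside a median of 52.7% over all windows. A match here describes letters and is not a binding site. The 250 bases before the start are shown for Wnt10b, whose level differed most between the libraries, for the Lef1 window with the matches, and for Axin2, the textbook target that had no match. They are written 5′ to 3′ on the gene's own strand, with TCAAAG in capitals. Wnt10b lies on the minus strand (chr15:98778151-98778400), Lef1 (chr3:131156044-131156293) and Axin2 (chr11:108920099-108920348) on the plus strand.
Wnt10b: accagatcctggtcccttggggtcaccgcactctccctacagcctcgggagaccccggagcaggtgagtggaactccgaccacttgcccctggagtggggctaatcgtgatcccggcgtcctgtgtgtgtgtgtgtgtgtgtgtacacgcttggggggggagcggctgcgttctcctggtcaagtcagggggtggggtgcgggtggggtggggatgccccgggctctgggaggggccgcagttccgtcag
Lef1, internal start: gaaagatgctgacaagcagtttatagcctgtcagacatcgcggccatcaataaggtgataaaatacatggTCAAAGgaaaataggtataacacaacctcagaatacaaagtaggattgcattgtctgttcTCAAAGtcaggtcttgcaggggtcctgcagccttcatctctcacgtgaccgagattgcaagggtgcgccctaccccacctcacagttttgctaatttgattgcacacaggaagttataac
Axin2: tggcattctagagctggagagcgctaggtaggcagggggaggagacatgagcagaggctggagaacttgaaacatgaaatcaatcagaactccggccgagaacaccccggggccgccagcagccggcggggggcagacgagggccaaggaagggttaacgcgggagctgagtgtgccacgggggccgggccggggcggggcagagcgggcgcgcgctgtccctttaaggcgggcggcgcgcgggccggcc

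The ligand Wnt10b had the highest level of the 10 genes at week-0 and was close to the detection limit at week-3. Wnt10b (ENSMUSG00000022996, chromosome 15, 98771753 to 98778150, minus strand of GRCm38, 5 exons in its longest coding transcript) is known for favouring bone formation over fat formation from marrow stroma and is also made by some blood cells. It was counted in 261 week-0 reads, giving an FPKM of 13.4 [11.8 to 15.1], against 1 read at week-3 and an FPKM of 0.0838 [0.00212 to 0.467]. The counting intervals of these levels do not touch, which the choice of Wnt10b for this difference made all but certain. The ratio corresponds to a level 159.6-fold lower at week-3, or -7.32 on the log2 scale, with an interval from -12.63 to -4.83 that is wide because the week-3 value rests on 1 read. Among the 13384 genes with at least 10 reads and none at 0 in either library it had the third lowest ratio (rank 3). The rank is no added result, since this large difference was the reason for choosing Wnt10b. Genes with 0 reads at week-3 cannot be ranked against it, since their ratios are bounds. Of all 13689 genes with at least 10 reads, 77.7% had a lower FPKM than Wnt10b at week-0 and 3.78% at week-3.

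Wnt10a (ENSMUSG00000026167, chromosome 1, 74791516 to 74804179, plus strand, 4 exons), the closest relative of Wnt10b among the Wnt ligands, was covered thinly. It had 20 week-0 reads, giving an FPKM of 1.11 [0.677 to 1.71], against 2 reads at week-3 and an FPKM of 0.181 [0.0219 to 0.654]. Its log2 ratio was -2.61, and the interval of -5.75 to -0.57 includes changes smaller than 2-fold. So the direction was the same as for Wnt10b, but the size was poorly fixed by the reads.

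**Figure D1:**
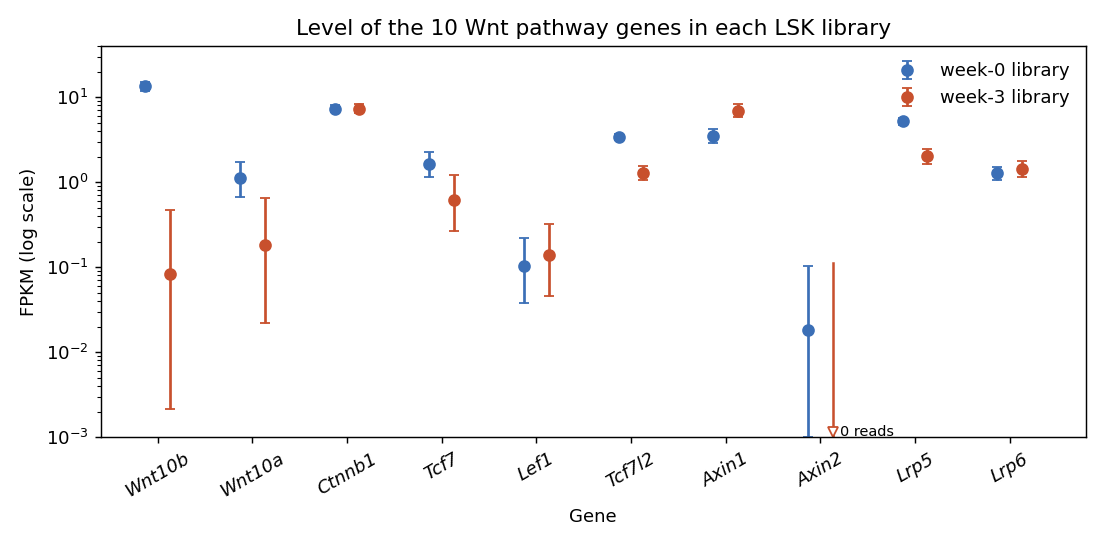
FPKM of the 10 genes (log scale) in the week-0 library (blue) and the week-3 library (red), with bars for the exact 95% counting interval and an open arrow for Axin2 at 0 reads at week-3. Wnt10b goes from the highest point at week-0 (13.4) to 0.0838 at week-3, whereas Ctnnb1 and Lrp6 overlap between the libraries and Axin1 is the gene whose week-3 interval lies wholly above that of week-0.

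The rest of the ligand family was low or not counted. Of 19 Wnt ligand genes, 6 had 0 reads in both libraries, and 5 reached 10 reads over both. Of these 5, Wnt10b, Wnt10a and Wnt2 were at most 0.5-fold at week-3, while Wnt4 and Wnt2b lay between the limits. The share of all genes at most 0.5-fold was 17.9%, and it was 34.0% among genes with 10 to 49 reads. All of the 5 but Wnt10b were in that class, and Wnt10b was chosen for this difference. Wnt10a and Wnt2 passed the filter of 10 reads through their week-0 reads. Wnt2 had 9 reads before induction and 1 after it, a log2 ratio of -2.46 with an interval of -7.91 to 0.39 that spans 0. Wnt4 had 16 and 8 reads and Wnt2b 11 and 8 reads, with log2 ratios of -0.29 and 0.25, both with intervals that span 0. Wnt10b held 261 of the 325 reads on ligand genes at week-0, or 80.3% [75.6 to 84.5], and 1 of 29 at week-3, or 3.45% [0.0873 to 17.8]. Wnt10a held 6.15% [3.80 to 9.34] and 6.90% [0.846 to 22.8], shares whose intervals overlap. Thus at week-0 most ligand reads came from Wnt10b, and at week-3 only 29 reads were left on the whole family. The fall in its share and in the sum largely restates the reads for which Wnt10b was chosen. For ligand secretion, Wls, the carrier of Wnt proteins to the cell surface, had an FPKM of 4.12 and 5.31 (302 and 238 reads, log2 ratio 0.37), and Porcn, which attaches the lipid, was counted in 3 and 0 reads.

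Both co-receptors were counted, and they differed in their values between the libraries. Lrp5 (ENSMUSG00000024913, chromosome 19, 3584828 to 3686564, minus strand, 23 exons), which also sets bone mass, had 393 week-0 reads, giving an FPKM of 5.18 [4.68 to 5.72], against 94 reads at week-3 and an FPKM of 2.03 [1.64 to 2.48]. Its log2 ratio was -1.35 [-1.70 to -1.03], an interval that lies past 2-fold throughout. Lrp6 (ENSMUSG00000030201, chromosome 6, 134446476 to 134566965, minus strand, 23 exons) had 127 week-0 reads, giving an FPKM of 1.28 [1.07 to 1.52], against 86 reads at week-3 and an FPKM of 1.42 [1.13 to 1.75]. The levels of Lrp6 overlapped, with a log2 ratio of 0.15 [-0.27 to 0.55]. The FPKM ratio of Lrp5 to Lrp6 was 4.04 at week-0 and 1.43 at week-3, with Lrp5 the higher in both libraries.

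The Frizzled receptors, which bind the ligand itself, were mostly lower at week-3. Of 10 Frizzled genes, 8 had at least 10 reads, of which 7 were at most 0.5-fold and 1, Fzd7, lay between the limits. This count was the same under TMM scaling, median-of-ratios scaling and totals without the 10 genes with most reads. Those settings moved all log2 ratios by only -0.11, -0.09 and 0.02, so they could not lower the count and are no support for it. Fzd2 and Fzd10 had 0 reads in both libraries. Fzd9, known for a role in B cell development, was the highest of them, with an FPKM of 8.65 from 126 reads in the first library and of 1.23 from 11 reads in the second, a log2 ratio of -2.81 [-3.85 to -1.92]. Fzd4, which also serves Norrin signalling in blood vessels, had 24 and 1 reads (log2 ratio -3.88 [-9.24 to -1.26]), and Fzd3, known from axon guidance, 31 and 2 reads (-3.25 [-6.35 to -1.27]). Fzd5 had 48 and 5 reads (-2.55 [-4.24 to -1.23]). Fzd8 and Fzd1 rested on 11 and 9 week-0 reads and on 1 read each in the week-3 library, and their intervals span 0. Fzd6 had an FPKM of 2.49 and 1.22, just past the limit (-1.03 [-1.83 to -0.30]). Summed over the family, FPKM went from 15.3 to 3.19. Among the other receptors, Ryk had 19 and 1 reads (-3.54 [-8.92 to -0.89]), and Ptk7, a pseudokinase of planar cell polarity, had an FPKM of 4.84 and 3.08 (-0.65 [-1.15 to -0.17]). With Lrp5, Lrp6, Ryk and Ptk7, 9 of 12 receptor genes were at most 0.5-fold and none at least 2-fold, with a median log2 ratio of -2.51, beside 17.9% and 11.9% of all genes. Fzd1, Fzd3, Fzd4, Fzd7, Fzd8 and Ryk had 10 to 49 reads, a class in which 34.0% of all genes were at most 0.5-fold and 21.4% at least 2-fold. Of these, Fzd1, Fzd3, Fzd4, Fzd8 and Ryk passed the filter of 10 reads through their week-0 reads. Their low ratios, and with them the count and the median, follow in part from that filter.

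**Figure D2:**
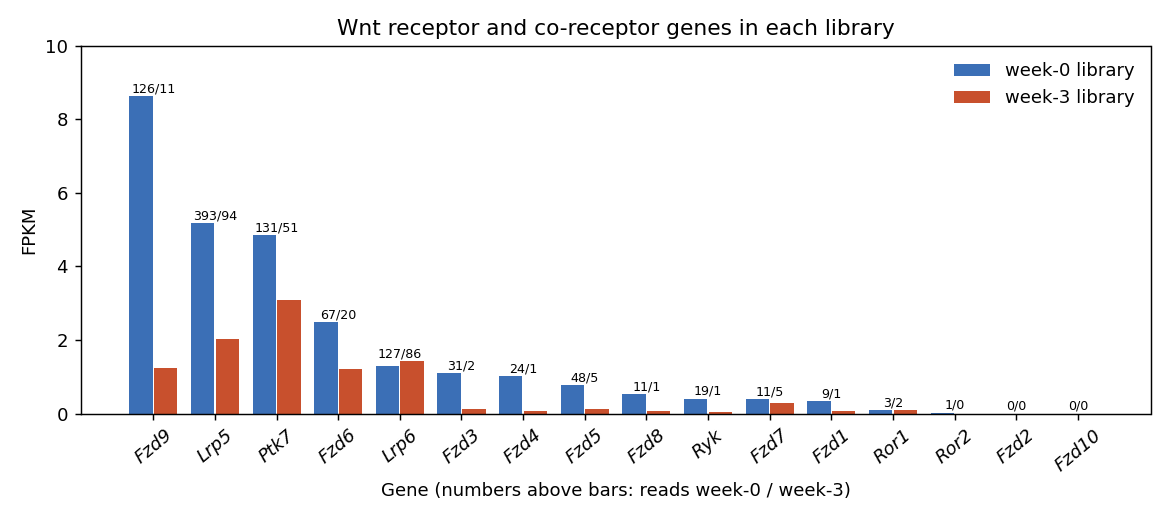
FPKM of 16 Wnt receptor and co-receptor genes in the week-0 library (blue bars) and the week-3 library (red bars), ordered by the week-0 level, with the reads at week-0 and week-3 written above each. Lrp6 is the only gene with more than 10 reads whose week-3 bar is the higher, while Fzd9 goes from 8.65 to 1.23.

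Over ligands, co-receptors and the genes described next, 5 of the 10 genes, Wnt10b, Wnt10a, Lrp5, Tcf7l2 and Tcf7, were at most 0.5-fold at week-3 and 0 were at least 2-fold higher. The shares over all genes were 17.9% and 11.9%. Of the 10 genes, 9 reached 10 reads, and Axin2 did not. Genes with few reads passed the limit more often, as 34.0% of all genes with 10 to 49 reads were at most 0.5-fold, beside 13.7% of those with 50 or more but under 500 and 11.1% of those with 500 or more. At least 2-fold higher were 21.4%, 11.2% and 4.88% of these classes. Wnt10a, Tcf7 and Lef1 were in the class of 10 to 49 reads. For 3 of the 9 genes, Wnt10b, Tcf7l2 and Lrp5, the whole interval lay past 2-fold. No more is read from these counts, because the choice of genes used this difference.

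**Figure D3:**
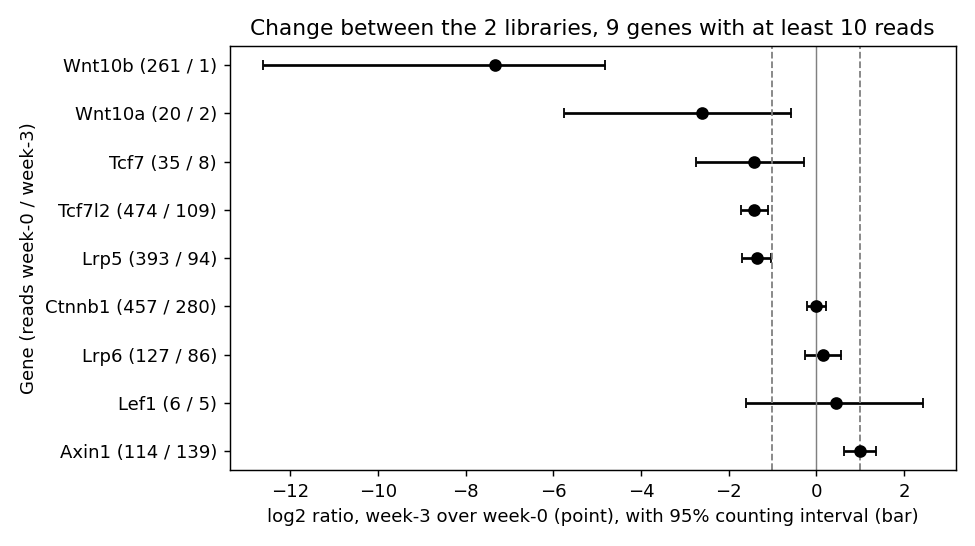
log2 ratio of week-3 over week-0 for the 9 genes with at least 10 reads (points), with exact 95% counting intervals (bars), reads at week-0 and week-3 beside each name, and dashed lines at 2-fold. Wnt10b (-7.32) stands apart, Tcf7l2 and Lrp5 lie wholly left of the lower line, and Axin1 (0.996) sits at the upper line.

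In the destruction complex the values stayed within 2-fold. Axin1 (ENSMUSG00000024182, chromosome 17, 26138688 to 26195811, plus strand, 11 exons), the scaffold that limits how much complex forms, was the member with the largest upward value. It had 114 week-0 reads, giving an FPKM of 3.49 [2.88 to 4.19], against 139 reads at week-3 and an FPKM of 6.95 [5.84 to 8.21]. The log2 ratio was 0.996 [0.63 to 1.37], equal to 1.99-fold, so Axin1 fell just short of the limit of 2, and it passed when the 10 genes with most reads were left out of the totals. Its 2 levels did not overlap in counting error. Of 22 Dishevelled and destruction complex genes, 20 had at least 10 reads and none was past the limit in either direction, with a median log2 ratio of 0.07. The 2 genes with the highest levels were Gsk3b, the kinase that marks β-catenin for degradation, with an FPKM of 25.04 and 32.1 (log2 ratio 0.36 [0.26 to 0.46]), and Csnk1a1, the priming kinase, with 21.1 and 22.0 (0.06 [-0.04 to 0.15]). Apc had a log2 ratio of -0.21 [-0.58 to 0.15], and the Dishevelled genes Dvl1, Dvl2 and Dvl3 had 0.02, -0.05 and -0.56. Tnks2, a tankyrase that turns over Axin, had 136 and 138 reads and a log2 ratio of 0.73 [0.38 to 1.08].

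Ctnnb1 (ENSMUSG00000006932, chromosome 9, 120929216 to 120960507, plus strand, 15 exons), which encodes β-catenin, had nearly the same level in both libraries. It was counted in 457 week-0 reads, giving an FPKM of 7.33 [6.67 to 8.03], against 280 reads at week-3 and an FPKM of 7.35 [6.51 to 8.26]. Its log2 ratio of 0.00 had an interval of -0.22 to 0.22, so a change of 2-fold was outside the counting error. Under TMM scaling, which moved the median of all genes by -0.11, it was -0.11. RNA levels say nothing of β-catenin protein, which the pathway controls by degradation. Jup, which encodes the related γ-catenin of cell junctions, had 166 and 31 reads, FPKM of 2.79 and 0.853, and a log2 ratio of -1.71 [-2.31 to -1.15].

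The TCF/LEF genes divided into 3 lower genes and Lef1. Tcf7l2 (ENSMUSG00000024985, chromosome 19, 55741810 to 55933654, plus strand, 14 exons), best known from gut stem cells and as a diabetes susceptibility gene, had 474 week-0 reads, giving an FPKM of 3.40 [3.10 to 3.72], against 109 reads at week-3 and an FPKM of 1.28 [1.05 to 1.54]. Its log2 ratio was -1.41 [-1.73 to -1.11]. Tcf7 (ENSMUSG00000000782, chromosome 11, 52252371 to 52283014, minus strand, 10 exons), which encodes TCF1, a factor of T cell development, had 35 week-0 reads, giving an FPKM of 1.64 [1.14 to 2.28], against 8 reads at week-3 and an FPKM of 0.614 [0.265 to 1.21]. Its log2 ratio of -1.42 was of the same size as that of Tcf7l2, but with an interval of -2.74 to -0.29. Tcf7l1, usually a repressor of the family, had 31 and 4 reads and a log2 ratio of -2.25 [-4.21 to -0.75]. Lef1 (ENSMUSG00000027985, chromosome 3, 131110471 to 131224356, plus strand, 12 exons), a factor of lymphoid and myeloid progenitors, had 6 week-0 reads, giving an FPKM of 0.102 [0.0375 to 0.222], against 5 reads at week-3 and an FPKM of 0.139 [0.0452 to 0.325]. No difference in Lef1 was detectable at this depth (log2 ratio 0.45 [-1.60 to 2.42]). Tcf7l2 made up 55.7% of the summed FPKM of the 4 genes at week-0 and 57.2% at week-3, while the sum was 6.09 and 2.23.

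Partners of β-catenin in the nucleus are given as a list of 23 genes with the TCF/LEF genes included. Of these, 22 had at least 10 reads, 8 were at most 0.5-fold, none was at least 2-fold and 14 lay between, with a median log2 ratio of -0.58. The 8 were Tcf7l1, Jup, Tcf7, Tcf7l2, Tle2, Bcl9l, Tle3 and Pygo2. Over all genes, 17.9% were at most 0.5-fold and 11.9% at least 2-fold. Tcf7 and Tcf7l1 had 10 to 49 reads, a class in which 34.0% of all genes were at most 0.5-fold and 21.4% at least 2-fold. Tle2 and Tle3 are Groucho co-repressors, and Tle3 had 1220 and 330 reads (log2 ratio -1.18). Bcl9l and Pygo2 bind β-catenin as co-activators, and had log2 ratios of -1.19 [-1.63 to -0.78] and -1.06 [-1.37 to -0.76]. So both co-activators and co-repressors were among the lower genes. The highest levels belonged to Aes, a short Groucho protein, with an FPKM of 101 and 76.6 (-0.39), and to Cby1, a β-catenin antagonist, with 25.2 and 25.8 (0.03).

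Axin2 (ENSMUSG00000000142, chromosome 11, 108920349 to 108950783, plus strand, 11 exons), the most widely used target of the pathway, was at or below the limit of detection in both libraries. A single read (1) was counted at week-0 and none (0) at week-3. A count of 3 reads would be an FPKM of 0.0549 (week-0) or 0.0898 (week-3), and the upper bounds of the 95% intervals were 0.102 and 0.110, so no ratio is given. Of 19 known target genes, 6 had 0 reads in both libraries, namely Nkd1, Sp5, Notum, Dkk1, Apcdd1 and Tnfrsf19, and Lgr5 had 1 and 0. Other targets had more reads. Znrf3 had 292 and 185 reads and Tcf7 35 and 8. Myc had an FPKM of 13.7 and 20.1 (log2 ratio 0.56 [0.41 to 0.70]) and the cell cycle gene Ccnd2 18.0 and 16.2 (-0.16 [-0.28 to -0.03]). Of the 10 target genes with at least 10 reads, 2 were at least 2-fold higher, 1 at most 0.5-fold, and 7 lay between, with a median log2 ratio of 0.23. Over all genes, 11.9% were at least 2-fold and 17.9% at most 0.5-fold, so these counts of 10 do not set the targets apart. The 2 higher targets rested on few reads, in the class of 10 to 49, where 21.4% of all genes were at least 2-fold. Rnf43, a ubiquitin ligase that removes Frizzled from the surface, had 2 and 9 reads (2.88 [0.61 to 6.13]), and Ascl2, a stem cell factor of the gut, 5 and 7 reads (1.20 [-0.68 to 3.19]). The lower gene was Tcf7. Cd44, with 1704 and 540 reads and FPKM of 21.4 and 11.1, fell just short of the lower limit (-0.95 [-1.09 to -0.81]). Under TMM and median-of-ratios scaling, 2 targets were at most 0.5-fold, Tcf7 and Cd44.

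Genes that act on the receptors from outside were mostly uncounted. Of 17 secreted or membrane antagonists, 10 had 0 reads in both libraries, and only Kremen1, a receptor for Dkk proteins, passed 10 reads (81 and 29 reads, log2 ratio -0.77 [-1.44 to -0.14]). Sfrp5, a secreted decoy for Wnt ligands, had 4 and 2 reads. In the R-spondin and receptor turnover list, Znrf3, the partner of Rnf43, was level at an FPKM of 4.22 and 4.37 (0.05 [-0.22 to 0.32]), and Lgr4, an R-spondin receptor, had 1.09 and 0.803 (-0.43 [-1.30 to 0.38]). All 8 lists together held 118 genes, of which 70 had at least 10 reads. Of these 70, 20 were at most 0.5-fold (28.6%), 2 at least 2-fold and 48 between, with a median log2 ratio of -0.25, beside 17.9% and 11.9% of all genes and a median of 0.05. Without the 10 genes, 15 of 61 were at most 0.5-fold (24.6%) and 2 at least 2-fold, with a median of -0.22. Among the 20 lower genes, Wnt10a, Wnt2, Fzd1, Fzd3, Fzd4, Fzd8, Ryk, Tcf7 and Tcf7l1 had 10 to 49 reads. In that class 34.0% of all genes were at most 0.5-fold and 21.4% at least 2-fold.

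**Figure D4:**
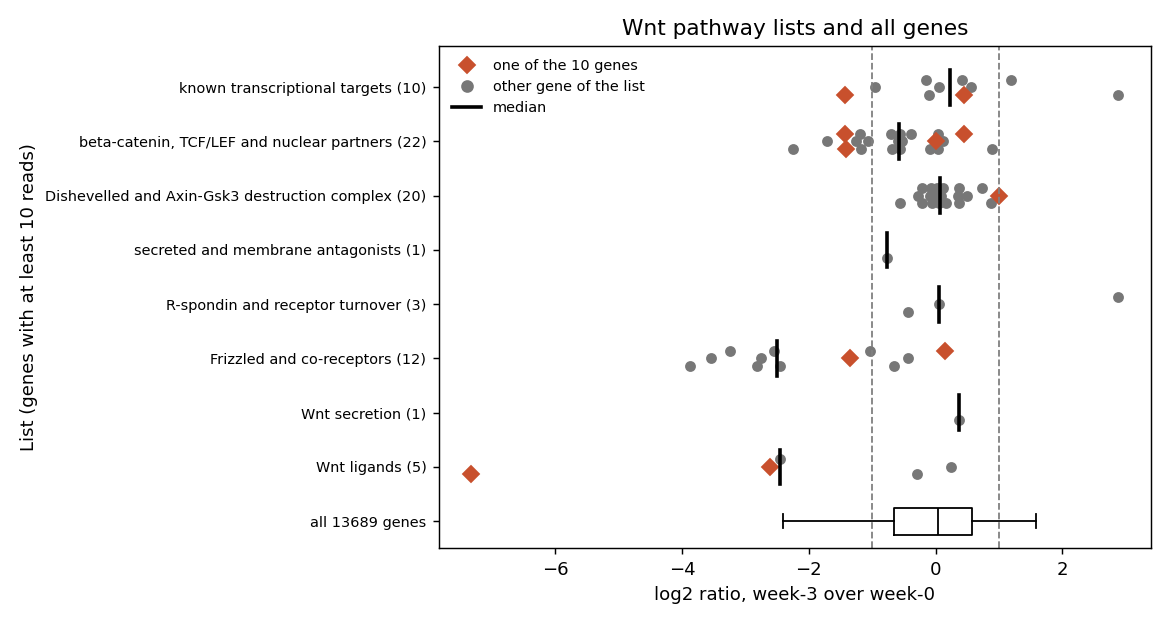
log2 ratio of week-3 over week-0 for the genes of 8 Wnt pathway lists with at least 10 reads, with the number in brackets, the 10 genes as red diamonds, other genes as grey points and medians as black bars, above a box plot of all 13689 genes (box for the quartiles, whiskers for the 5th and 95th percentiles) and dashed lines at 2-fold. The receptor list is centred at -2.51 and the destruction complex list at 0.07, and several receptor genes passed the filter through their week-0 reads.

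The GO annotation in the deposited tables gave a list not assembled by hand. Under the term canonical Wnt signaling pathway, 140 of 219 genes had at least 10 reads, with 43 at most 0.5-fold (30.7%), 1 at least 2-fold and a median log2 ratio of -0.41. Over all genes, 17.9% were at most 0.5-fold and 11.9% at least 2-fold, with a median of 0.05. Among genes with 10 to 49 reads these shares were 34.0% and 21.4%. Outside the 8 lists, 27 of 95 such genes were at most 0.5-fold (28.4%) and 1 at least 2-fold, with a median of -0.44. The wider term Wnt signaling pathway had 59 of 228 genes at most 0.5-fold (25.9%) and 11 at least 2-fold, with a median of -0.23. For 4 genes of each term the ratio is a bound, from a count of 0 set to the floor of 3 reads.

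Compared with each other, the 10 genes changed order between the libraries. By FPKM at week-0, Wnt10b was followed by Ctnnb1, Lrp5, Axin1, Tcf7l2, Tcf7, Lrp6, Wnt10a, Lef1 and Axin2. Of the 9 neighbouring pairs in that order, 4 did not differ beyond counting error, namely Axin1 and Tcf7l2, Tcf7 and Lrp6, Lrp6 and Wnt10a, and Lef1 and Axin2. At week-3 the order was Ctnnb1, Axin1, Lrp5, Lrp6, Tcf7l2, Tcf7, Wnt10a, Lef1, Wnt10b and Axin2, and 6 of 9 neighbouring pairs did not differ beyond counting error. The 3 that did were Axin1 over Lrp5, Lrp5 over Lrp6 and Tcf7l2 over Tcf7. Relative to all genes with at least 10 reads, the share with a lower level than Axin1 was 49.95% in the first library and 65.6% in the second, and for Ctnnb1 it was 66.4% and 66.6%. For Lrp5 it was 59.1% and 38.5%, and for Tcf7l2 49.3% and 29.0%.

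Beside Wnt10b on chromosome 15, Arf3 and Fkbp11 did not share its values, and the other neighbours had too few reads to compare. The nearest protein-coding genes toward lower coordinates were Arf3, a GTPase of vesicle traffic 8538 bases away, with an FPKM of 15.0 and 13.7 (log2 ratio -0.14 [-0.38 to 0.11]), and Fkbp11, a prolyl isomerase of secretory cells 43554 bases away, with 11.8 and 65.1 (2.46 [2.02 to 2.92]). Toward higher coordinates, Wnt1, 11706 bases away, had 0 reads in both libraries, and Ddn, 25631 bases away, had 1 and 0. Beside Wnt10a on chromosome 1, Wnt6, 6193 bases away, had 3 and 0 reads, Prkag3 5 and 3, Cdk5r2 1 and 0 and Fev 10 and 0. Of the 10 genes, 5 overlap another annotated gene, and since strand is not stated to have been used in counting, reads in the overlap cannot be told apart. The overlapping genes were Ulk4 (10 and 0 reads) and 4930593C16Rik (0 and 2) for Ctnnb1, Gm26551 (7 and 0) and A630014C17Rik (0 and 0) for Tcf7, Ppnr (10 and 0) for Tcf7l2, and Gm42449 and Gm43352 for Lef1 and Gm11670 for Axin2, all at 0. None overlaps Wnt10b.

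**Figure D5:**
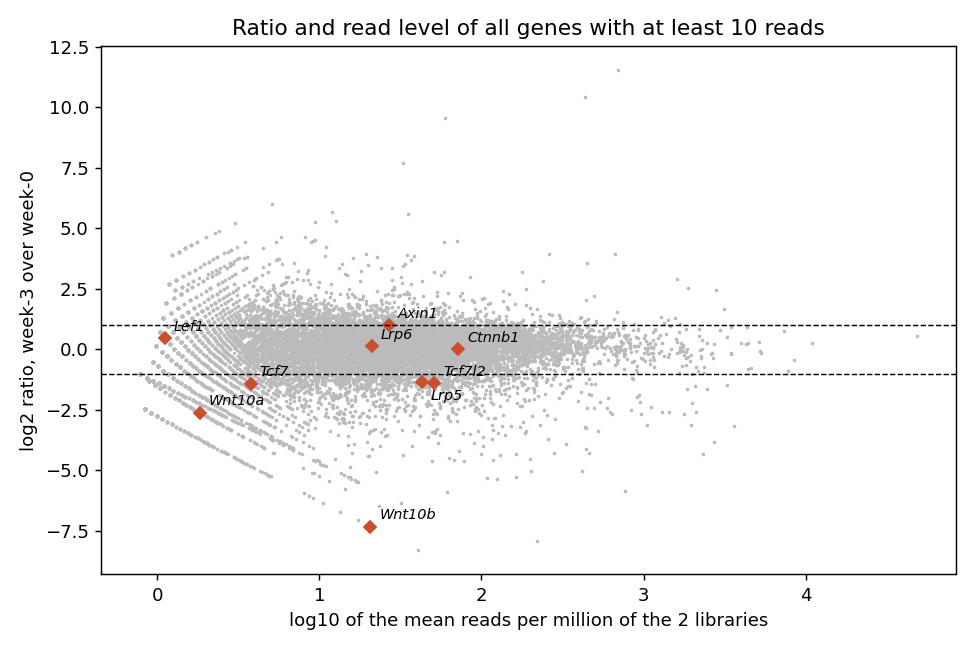
log2 ratio of week-3 over week-0 against the log10 of the mean RPM of the libraries for 13689 genes with at least 10 reads (grey), with 9 of the 10 genes as named red diamonds and dashed lines at 2-fold. The diagonal bands at low levels are genes with a few reads in either library, and Wnt10b (-7.32) lies at the lower edge of the cloud at a level where most genes are near 0.

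Measured by Euclidean distance in log2(FPKM + 0.1) over the 2 libraries, the 5 genes nearest to Wnt10b were Nr4a3, Fam110c, the light chain segment Igkv6-20, another Igkv segment (ENSMUSG00000096632) and Xcl1. Nr4a3, a nuclear receptor of the immediate-early class, had 768 and 8 reads, FPKM of 11.0 and 0.187, and lay at a distance of 0.70. Fam110c had 293 and 2 reads, FPKM of 17.3 and 0.193, and lay at 0.77. The immunoglobulin light chain segment Igkv6-20 had 33 reads at week-0, the other segment 52 and the chemokine gene Xcl1 42, all with 0 at week-3. Reads of the Igkv segments can be split among near-identical copies and are uncertain. With 2 libraries, this likeness is over 2 values per gene.

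Markers of other cell types were counted beside these genes. T or NK cell markers gave a summed level of 459 RPM before and 680 RPM after induction, almost all from Nkg7 (2839 and 2627 reads), a gene that myeloid progenitors also express. The defining markers Cd3d, Cd3e and Cd3g had 1 or fewer reads each at week-3 and between 2 and 5 at week-0, Trac had 27 and 5 and Cd5 24 and 1. Of 12 T or NK cell markers 4 had at least 10 reads, and 2 of these, Cd5 and Trac, were at most 0.5-fold. Of the B cell markers with at least 10 reads, 3 of 6 were at most 0.5-fold. Plasma cell markers summed to 1121 and 246 with 7 of 8 at most 0.5-fold, and dendritic cell markers to 1546 and 310 with 6 of 8. Over all genes the share at most 0.5-fold was 17.9%. Jchain gave 806 and 24.7 RPM of the plasma cell sums. Xbp1 gave 229 and 215 RPM, with a log2 ratio of -0.09, and so most of the plasma cell sum at week-3. Flt3, which is also in the LSK list, gave 972 and 240 RPM of the dendritic cell sums. Stromal or osteoblast markers summed to 302 and 119 with 3 of 5 at most 0.5-fold. Sp7, the osteoblast factor, was at 0 in both libraries. Bglap, Col1a1, Lepr and Pdgfra had only 1, 4, 2 and 6 reads before induction and 0 after it. They fell below the filter of 10 reads, and no change is read from their counts. Runx2 (1393 and 236 reads) and Pdgfrb (465 and 220 reads) gave most of the stromal sums. Endothelial markers summed to 85.7 and 67.2 with 1 of 4 at most 0.5-fold. The LSK markers themselves summed to 2337 and 1013, and immediate-early genes, which respond to stimulation and handling of cells, to 40671 and 12076. Mast cell or basophil markers summed to 325 and 4191 and granulocyte or monocyte markers to 3620 and 16967. The part of any of these in the values of Wnt10b, the receptors and the TCF/LEF genes was not tested.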

How the data were processed

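The RNA-seq data comprise 1 LSK library at week-0 and 1 at week-3. The authors made cDNA by the SMARTer Ultra Low Input method, read both ends on a HiSeq and mapped trimmed reads to GRCm38 (mm10) with TopHat 2.0.9. Per gene, the authors deposited counts, which are whole reads without normalization, and FPKM, scaled by exon length and the reads of the library. The counting tool and the annotation release were not given in the sources used here.

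Ratios were computed from reads scaled by library totals and differed from the ratio of the deposited FPKM by at most 0.000540 on the log2 scale. The filter was at least 10 reads over both libraries, and the limits were 2 and 0.5. A count of 0 opposite a count above the floor was replaced by the floor of 3 reads. With 1 library per time point no test was made. The depth was 6356164 and 3886695 reads. Alternatives used TMM (edgeR 4.0.16), size factors (DESeq2 1.42.0, R 4.3.3), totals without 10 genes, pseudocounts of 0.1 and 1 FPKM, other read filters and other limits. Procedures were tested on simulated data.

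The 10 genes, the 8 pathway lists, the 10 marker lists and the GO terms were chosen with earlier results of these data known. Beside the 10 genes, the text names, per list, the 4 largest changes past the limit and the 2 highest levels, the 5 genes nearest to Wnt10b by pattern, 2 neighbours on each side of Wnt10b and Wnt10a, overlapping genes and markers. Other genes were named after their values were seen. A result for 1 marker is not reported here. Coordinates are those of the deposited tables. Strand, exons and biotype come from GENCODE M21, which held 34267 of 34745 identifiers and gave 8 of the 10 genes the same coordinates (not Wnt10b and Tcf7l2). Promoters come from RefSeq. Computation was in Python 3.11.15 (scipy 1.17.1, pandas 2.3.3, numpy 2.4.6; figures with matplotlib 3.10.9).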

Additional observations from a re-analysis of the deposited data

How the results depend on the processing

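No paired analysis was possible because each time point had 1 library, and for the same reason no library could be left out. Under the scaling and pseudocount alternatives, the log2 ratios of the tested genes kept their sign, except for Ctnnb1, which was 0.00 in the report, -0.11 under TMM and -0.09 under median-of-ratios scaling. Leaving Wnt10b aside, 39 of 40 such values stayed within counting error. The exception was Tcf7l2 with a pseudocount of 1 FPKM (-0.95). That pseudocount also took Wnt10a from -2.61 to -0.83 and Tcf7 from -1.42 to -0.71, no longer past 2-fold but inside their wide intervals. For Wnt10b, the log2 ratio of -7.32 became -3.73 with that pseudocount, which by construction shrinks ratios of low levels. The counts depended on the filter and the limit. The number of the 10 genes at most 0.5-fold, 5 in the report, was 2 with a pseudocount of 1 FPKM, 3 with at least 50 reads and 3 when the nearer bound of the interval had to pass 2-fold. The number at least 2-fold higher, 0 in the report, was 1 without the 10 genes with most reads in the totals and 1 with a limit of 1.5, in both cases Axin1. For the 8 pathway lists, 20 lower genes became 4, 11 and 9 under those 3 settings, and 2 higher genes became 0, 0 and 0, and 6 with a limit of 1.5. For all genes, 2455 lower became 1068, 1317 and 993, and 1633 higher became 686, 917 and 523, and 3362 with a limit of 1.5. TMM moved the median of all genes by -0.11 and median-of-ratios scaling by -0.09, and the lower share of all genes past 2-fold was 60.1%, 66.4% and 65.4%. Depth limits the values of Wnt10a, Lef1, Tcf7, Axin2 and most Frizzled genes, which have few reads.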
